A study of Mus musculus with 8 samples.

Results

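A total of 4819 regions of the mouse genome carried a 5-hydroxymethylcytosine (5hmC) peak at D1 of reprogramming with both methods of the study and had no peak at any other stage. They were chosen from the peak lists themselves. Merging every peak of the 8 lists with those it overlapped or touched gave 222732 regions, and a library counted as present where at least 1 bp of its peaks lay in the region. The regions kept were present at OSNK D1 and at OySyNyK D1 and absent in fibroblasts, at D3 and D5 of both methods and in induced pluripotent stem cells. They made up 2.16% of all regions and covered 3335 kb. This pattern is the rule of choice and not a finding, and a list without a peak need not mean a locus without 5hmC.

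The libraries were mouse embryonic fibroblasts (MEF, named OG2-MEFs in the growth protocol), intermediates taken at D1, D3 and D5 with each of the methods OSNK and OySyNyK, and finally induced pluripotent stem cells (iPSC), whose title carries the OySyNyK factors. D is read as day. From knowledge of the study, OSNK stands for the factors Oct4, Sox2, Nanog and Klf4, and OySyNyK for the same set with YAP's transactivation domain joined to Oct4, Sox2 and Nanog. Medium for making iPSC held vitamin C at 50 µg/ml and leukemia inhibitory factor at 1000 U/ml, per the labels. Where the intermediates were kept in it, the parts of factors and medium in a difference from MEF cannot be told apart. The iPSC were kept on mitomycin C-treated MEF feeder cells. Each group was 1 library, so no difference has a replicate check and no p-value is given.

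5hmC is made from 5-methylcytosine by the TET dioxygenases, which need iron and 2-oxoglutarate and whose activity in cultured cells is raised by vitamin C. The mark can be an intermediate on the way to unmodified cytosine, through dilution at replication or through further oxidation and base excision repair, or it can persist at enhancers and gene bodies. Reprogramming of fibroblasts begins with binding of the factors to many sites that they leave again later, and the early phase includes silencing of the fibroblast programme.

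Shared regions of a single day were most numerous at D1. With both methods, 4819 regions were seen on D1 only, 844 on D3 only and 1255 on D5 only. Of regions present with both methods on the given day and absent in MEF and iPSC, D1-only regions were 19.2% of 25044 (exact Clopper-Pearson 95% interval 18.8 to 19.7), D3-only regions 3.95% of 21391 (3.69 to 4.22) and D5-only regions 8.15% of 15396 (7.72 to 8.59). These intervals, like all below, cover counting error along the genome only. D1 has no earlier intermediate and D5 no later one, while D3 lies between days, so the days differ in what the rule demands. The methods also coincided more among D1-only regions than among D3-only or D5-only ones. The 4819 regions were 23.3% of the 20646 regions that OSNK showed on D1 only and 42.9% of the 11227 that OySyNyK showed on D1 only. The same shares were 11.5% and 9.11% for D3 and 10.7% and 15.2% for D5. The D1 lists were the longest, with 116302 peaks for OSNK and 100951 for OySyNyK, against 54938 to 93694 in the other 6. OSNK and OySyNyK had 89497 and 93694 peaks at D3, and 92762 and 70592 at D5. Over whole lists, regions with a peak of both methods numbered 68571 at D1, 50959 at D3 and 39607 at D5. The part of this wider overlap in the shares of single-day regions was not tested. With the 54938 best-scoring peaks of every list, shared regions numbered 1412 for D1 only, 553 for D3 only and 1105 for D5 only, and sequencing depth is unknown.

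**Figure D1:**
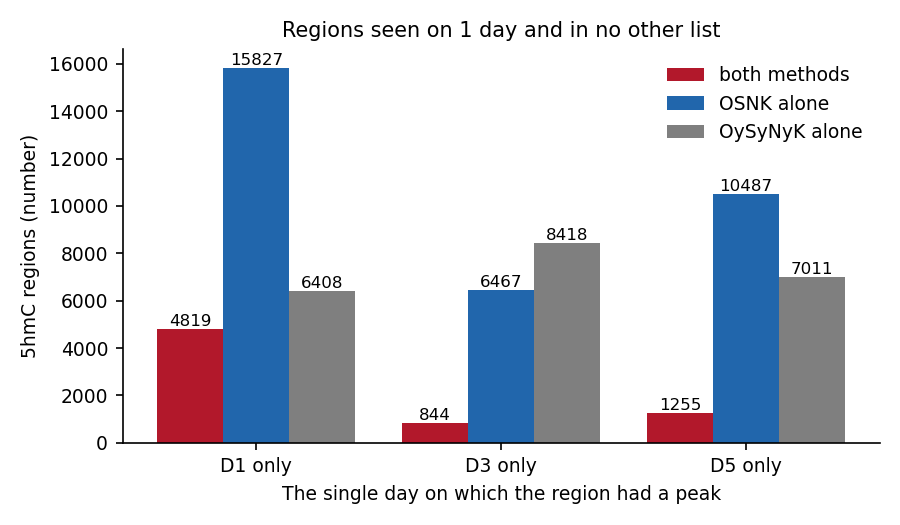
Number of 5hmC regions (vertical axis, from 0) with a peak on 1 day and in no other list, for D1, D3 and D5, split into regions found with both methods, with OSNK alone and with OySyNyK alone, 1 library per method and day. Regions of both methods number 4819 for D1, 844 for D3 and 1255 for D5, while OSNK alone gives 15827 at D1.

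The D1 peaks in these regions were of low score and somewhat narrower than their lists. Each peak has the authors' score, which MACS derives from the peak's p-value so that a stronger peak scores higher, and which was at least 50 in every list. The regions had a median width of 652 bp (quartiles 554 and 778, range 289 to 2087). The D1 peaks in them had a median width of 595.5 bp with OSNK and 527 bp with OySyNyK, against 690 and 662 bp over the whole lists. The OSNK D1 score had a median of 80.8 (quartiles 62.6 and 110) and a highest value of 408. The OySyNyK D1 score had a median of 68.3 (quartiles 57.9 and 86.4) and a highest value of 286. In the 6075 regions present at all 6 intermediates and absent in MEF and iPSC the medians were 143 with OSNK and 131 with OySyNyK. Within its own list the median peak stood at percentile 35.2 with OSNK and at percentile 27.3 with OySyNyK. A score of at least 100 was reached by 1527 of the 4819 regions (31.7%) with OSNK, by 698 (14.5%) with OySyNyK and by 340 (7.06%) with both. At the other end, 2107 regions (43.7%) had a score under 60 with at least 1 method, and the lowest scores of all were 50.0 and 50.02.

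The rule asked for D1 peaks of both methods in 1 merged region, and within it the peaks largely coincided. In 4793 regions each method had exactly 1 peak. The shared stretch had a median of 474 bp (quartiles 396 and 572) and took up a median of 75.5% of the region, and it was at least 50% of the region in 4526 of 4819 (93.9%). The midpoints of the OSNK and OySyNyK peaks lay a median of 52.0 bp apart, and within 100 bp in 3804 regions (78.9%). Only 9 regions shared under 100 bp, the smallest shared stretch being 2 bp, and in no region did the peaks touch without a common base. Across the 4819 regions Spearman's rho of the OSNK and OySyNyK scores was 0.18, against 0.48 across regions present at all 6 intermediates, as a description over regions of the same pair of libraries. The D1-only regions spanned a narrower range of scores, and the part of this in the value was not tested.

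The strongest of these regions show what the D1 signal looked like at its clearest. They are named by the lower of their D1 scores, with coordinates as the lists give them, in a mouse assembly other than GRCm38, and are not assigned to genes. On chromosome 19, positions 28996980 to 28997650 held an OSNK D1 peak with a score of 248 and an OySyNyK D1 peak with a score of 253, sharing 562 bp. That is percentile 83.7 of the OSNK list and 88.5 of the OySyNyK list. The nearest peak of another library, of OySyNyK D5, lay 418 bp away. On chromosome 6, positions 6606865 to 6607750 scored 368 with OSNK and 246 with OySyNyK, with the nearest other peak, of OSNK D5, at 2.91 kb and no iPSC peak within 535 kb. On chromosome 5, positions 99715742 to 99716506 scored 238 with OSNK and 286 with OySyNyK, the highest OySyNyK score of all 4819, and an OySyNyK D3 peak lay 277 bp away. The other 7 of the top 10 lay on chromosomes 10, 9, 6, 5, 16, 13 and 4, beginning at 122490092, 57709643, 88870483, 24337477, 4783361, 115676422 and 104396005. Their lower scores were between 179 and 214, and their nearest peak of another library was between 473 bp and 8.82 kb away. In 8 of these 10 regions a peak of another library lay within 3 kb. Over all 4819 regions the median distance to such a peak was 1.88 kb, so this nearness was not particular to the strongest.

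In each of the 5 widest regions the score was higher with 1 method, as was the percentile within that method's own list. In the widest, the percentiles were 81.3 with OSNK and 33.1 with OySyNyK. On chromosome 6, positions 57487395 to 57489481 spanned 2087 bp with a score of 227 with OSNK and 73.7 with OySyNyK, sharing 889 bp. On chromosome 8, positions 45962190 to 45964121 spanned 1932 bp with scores of 221 and 93.8 in the same order of methods. On chromosome 6, positions 100378577 to 100380442 were the reverse case, with a score of 59.6 with OSNK and 231 with OySyNyK. The other 2 of the 5 widest, on chromosomes 6 and 15 from 124655212 and 95111045, scored higher with OSNK. Scores of different lists are set side by side here and are not on a common depth.

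Presence at later days went with the strength at D1. Of the 25044 regions at D1 of both methods and absent in MEF and iPSC, 4819 had a peak in none of the 4 lists of D3 and D5, 4260 in 1, 4618 in 2, 5272 in 3 and 6075 in all 4. Over these steps the median OSNK D1 score was 80.8, 96.3, 109, 127 and 143, and the median OySyNyK D1 score 68.3, 76.3, 83.9, 101 and 131. The D1 peaks' own median width was 595.5, 650, 678, 714 and 756 bp with OSNK and 527, 573, 600, 647 and 701 bp with OySyNyK. Split by quartiles of the OSNK D1 score, the D1-only share was 31.8% in the lowest quartile (95% interval 30.7 to 33.0), 24.8%, 16.6% and 3.75% in the highest (3.30 to 4.25). By the OySyNyK D1 score it was 34.1% (32.9 to 35.3), 25.1%, 14.4% and 3.32% (2.89 to 3.80). Weak D1 peaks were the ones most often missing later, and even in the lowest quartile most regions had a later peak. The D1 lists had median scores of 105 with OSNK and 95.8 with OySyNyK, above those of the later lists, and the part of list strength in the missing peaks was not tested.

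**Figure D2:**
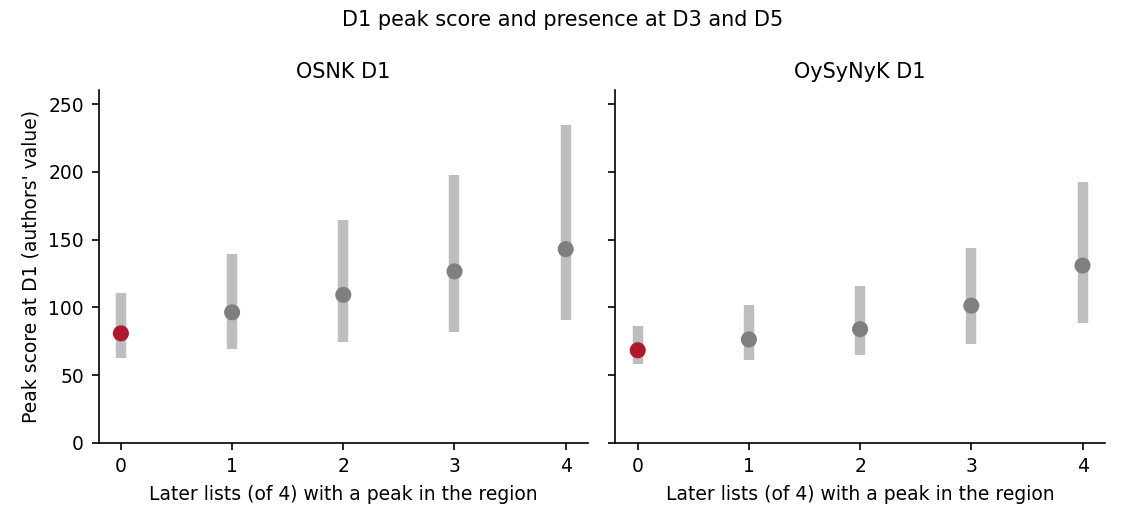
Peak score at D1 (authors' value, vertical axis) against the number of D3 and D5 lists, of 4, with a peak in the region, for the 25044 regions at D1 of both methods and absent in MEF and iPSC, with points for medians and bars for quartiles. The 4819 D1-only regions, at 0 later lists in red, have the lowest medians, 80.8 with OSNK and 68.3 with OySyNyK, and regions in all 4 later lists the highest, 143 and 131.

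Loss at D3 and reappearance at D5 could be followed in the same 25044 regions. OSNK D3 held a peak in 66.6% of them and OSNK D5 in 54.9%, and OySyNyK D3 in 58.5% and OySyNyK D5 in 34.0%. Neither method had a peak at D3 in 5735 regions. Of these, 711 (12.4%) had a peak at OSNK D5 and 298 (5.20%) at OySyNyK D5, and the other 4819 regions (84.0%) stayed without a peak. Regions just outside the rule had a peak in 1 further list. They numbered 2174 with OSNK D3, 1263 with OySyNyK D3, 618 with OSNK D5, 205 with OySyNyK D5, 65 with iPSC and 6724 with MEF. The further peak was weak in the later lists, with median scores of 70.3, 65.5, 62.3, 59.6 and 62.2 in the order OSNK D3, OySyNyK D3, OSNK D5, OySyNyK D5 and iPSC, each below its list's own median of 71.0 to 91.4. With MEF the median was 120, above the MEF list's median of 103. Just inside the rule, the regions with the lowest lower score lay on chromosome 12 from 32773346, on chromosome 1 from 108065125 and on chromosome 7 from 75438892. Those closest to another list, at 1, 1 and 3 bp from a peak of MEF, OSNK D3 and iPSC, lay on chromosome 2 from 106881347, on chromosome 8 from 120933219 and on chromosome 10 from 122406972.

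Among regions absent in iPSC, on all chromosomes together, those first seen at D1 more often had a later peak than those present in MEF. Regions at D1 of both methods and absent in MEF and iPSC lacked any peak at D3 and D5 in 19.2% of 25044 cases. Regions at D1 of both methods that were present in MEF and absent in iPSC did so in 21.1% of 31807 (95% interval 20.7 to 21.6). On autosomes the median lower D1 score was 75.6 for the regions absent in MEF and 121 for those present in MEF, and at the same D1 score the gap was wider. With a lower D1 score of 50 to 60, 33.3% of the regions absent in MEF (32.1 to 34.5) and 50.5% of those present in MEF (48.7 to 52.3) had no later peak. From 80 to 100 the shares were 15.0% (13.9 to 16.1) and 30.3% (28.9 to 31.7), and from 150 to 200 they were 2.14% (1.497 to 2.97) and 7.15% (6.39 to 7.96). In all 6 score classes the share was lower for regions absent in MEF. With the regions present in MEF weighted to the scores of those absent in MEF, the difference was -14.4 percentage points. On X alone the order was the reverse before any matching of scores. The median lower D1 score on X was 66.0 for the regions absent in MEF and 85.1 for those present in MEF. There 52.6% of 209 regions absent in MEF (45.6 to 59.6) and 38.3% of 183 present in MEF (31.2 to 45.7) had no later peak. With a lower score under 80 these shares on X were 63.9% (55.5 to 71.7) and 66.3% (54.8 to 76.4). At 80 or more they were 27.7% (17.3 to 40.2) and 16.5% (9.92 to 25.1). The intervals overlapped in each split, so the order on X is not resolved at like scores. Among regions at D1 of both methods and present in iPSC, absence at D3 and D5 was rare, at 1.89% of 3448 without MEF and 3.26% of 8272 with MEF. Over all 68571 regions at D1 of both methods it was 17.3%.

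**Figure D3:**
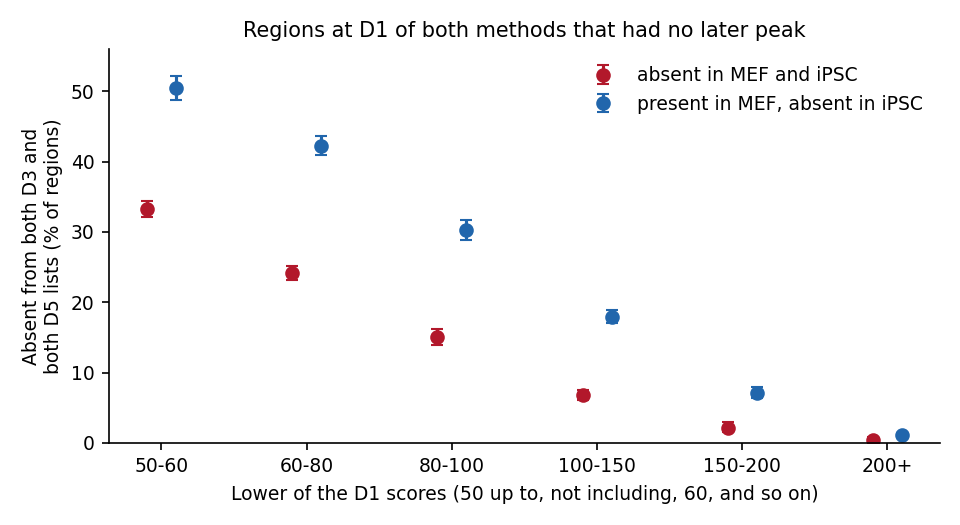
Share of regions at D1 of both methods with no peak at D3 and D5 of either method (vertical axis, %) by the lower of the D1 scores, for regions absent in MEF and iPSC (red) and regions present in MEF and absent in iPSC (blue), with exact 95% intervals for counting error. Regions absent in MEF lie below in each of the 6 classes, for example at 33.3% against 50.5% for scores of 50 to 60.

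In the lists as deposited, the X chromosome was over-represented among the D1-only regions relative to other 5hmC regions, although it held few of them. X carried 110 of the 4819 (2.28%, 95% interval 1.88 to 2.74), against 0.81% of all 222732 regions and 6.27% of the sequence spanned by peaks. Of regions present at all 6 intermediates and absent in MEF and iPSC, 13 of 6075 lay on X (0.214%, 0.114 to 0.366). Regions of MEF and D1 of both methods that were then absent had 1.04% on X (0.812 to 1.31). D1-only regions of OSNK alone and of OySyNyK alone had 2.31% and 1.79%. D3-only and D5-only regions had 9 each on X, which is 1.07% and 0.717%. Among regions at D1 of both methods and absent in MEF and iPSC, 110 of 209 on X were D1-only, or 52.6% (45.6 to 59.6), against 19.0% of 24835 on autosomes (18.5 to 19.5). Single autosomes lay between 13.1% on chromosome 17 and 23.7% on chromosome 8.

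The X difference was smaller, but still present, once D1 scores were matched. Regions on X scored lower, with a median lower D1 score of 66.0, against 75.6 on autosomes. With the autosomal regions weighted to the scores on X over the 6 score classes, the D1-only share was 52.6% on X and 23.2% on autosomes, a difference of 29.5 percentage points. By class, it was 60.8% of 79 regions on X (49.1 to 71.6) and 33.0% of 6248 on autosomes for scores of 50 to 60. For 60 to 80 it was 67.7% of 65 on X (54.9 to 78.8) and 23.7% on autosomes, and for 80 to 100 it was 31.6% of 38 on X (17.5 to 48.7) and 14.8% on autosomes. From 100 to 150, 6 of 19 regions on X were D1-only, against 6.65% on autosomes, and at higher scores 0 of 8 on X were. Regions that MEF had as well showed a smaller difference, 38.3% of 183 on X (31.2 to 45.7) and 30.1% on autosomes with the same weighting, or 8.18 points. With a lower score under 80 the shares in these regions were 66.3% on X (54.8 to 76.4) and 45.1% on autosomes, and at 80 or more they were 16.5% on X (9.92 to 25.1, an interval that includes the autosomal value) and 12.5% on autosomes. Over whole lists the X share was 0.777% in MEF, 0.841% at OSNK D1 and 0.628% at OySyNyK D1, between 0.32% and 0.467% at D3 and D5, and 0.193% in iPSC, so a higher X share was not particular to the D1 lists. The median scores of OSNK and OySyNyK lists were 105 and 95.8 at D1 and 81.3 and 75.8 at D5. The part of list strength in the X share was not tested beyond the score classes. With equal numbers of peaks only 11 of 1412 D1-only regions were on X, or 0.779% (0.390 to 1.39). That interval includes the 0.529% of all regions under that setting. There 28.2% of 39 regions on X were D1-only (15.0 to 44.9, an interval that includes the autosomal value), against 15.5% on autosomes. With a score of at least 100 in every list, X held 0.643% of the D1-only regions (0.408 to 0.964) and 0.503% of all regions, a value inside that interval.

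**Figure D4:**
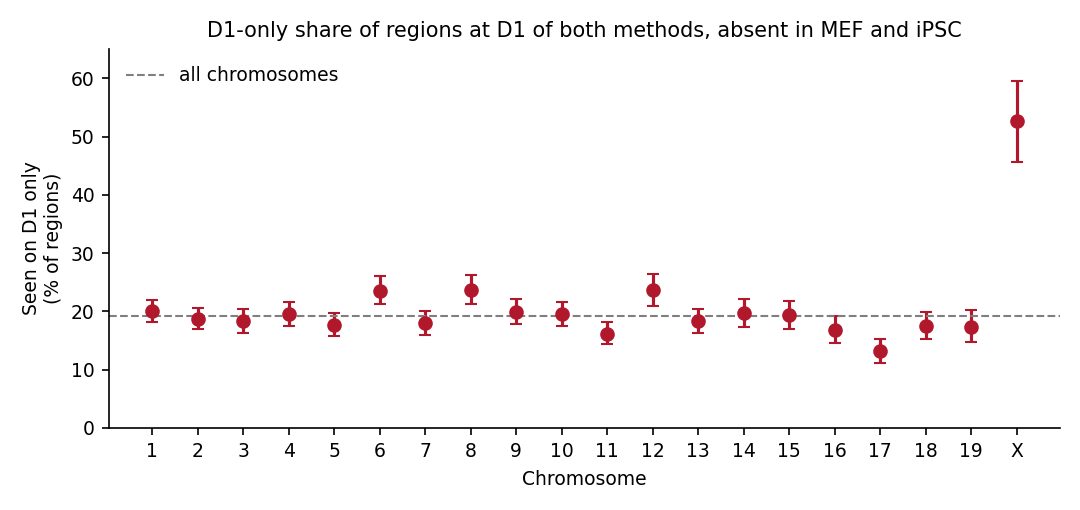
D1-only share (vertical axis, %) of the regions at D1 of both methods and absent in MEF and iPSC, for each chromosome, with exact 95% intervals for counting error and the value over all chromosomes, 19.2%, as a dashed line. X stands at 52.6%, above every autosome, and the autosomes lie between 13.1% and 23.7%.

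D1-only regions lay slightly farther from their next region than 5hmC regions in general. The median distance to the next region of any kind was 1.47 kb, against 0.994 kb for the regions at D1 of both methods and absent in MEF and iPSC and 1.20 kb for all 222732 regions. It was 2.04 kb for OSNK D1 only, 1.70 kb for MEF and D1 of both methods only and 1.40 kb for OySyNyK D1 only. D3-only and D5-only regions of both methods had 1.37 and 1.05 kb. A larger distance was therefore not particular to the D1-only regions of both methods. The nearest peak of any of the 6 other lists was a median of 1.88 kb away (quartiles 0.591 and 5.62), within 1 kb for 1682 regions (34.9%) and within 10 kb for 4108 (85.2%). By list, the median distance was 7.22 kb to a MEF peak, 5.55 kb to OSNK D3, 5.90 kb to OySyNyK D3, 6.18 kb to OSNK D5, 9.64 kb to OySyNyK D5 and 17.8 kb to an iPSC peak. The nearest list was OSNK D3 for 1376 regions and MEF for 1254, and iPSC for 510. Longer lists and wider peaks give shorter distances, so these values do not rank the stages. D3-only and D5-only regions of both methods were nearer to the lists they were absent from, with medians of 1.63 and 1.23 kb. Their absent lists include both D1 lists, the longest, which are left out for D1-only regions. These medians are therefore not measured against the same lists. The same holds for the shares within 1 kb, 36.8% for D3-only and 44.5% for D5-only regions. Such shares were 30.6% for OSNK D1 only, 40.0% for OySyNyK D1 only and 25.6% for MEF and D1 of both methods only. Each is measured against its own absent lists, and the 34.9% of the D1-only regions lay among these values. Regions present at all 6 intermediates and absent in MEF and iPSC lay 4.97 kb from MEF peaks and 7.86 kb from iPSC peaks, and all 25044 regions at D1 of both methods and absent in MEF and iPSC 6.01 and 11.1 kb, while those of OSNK D1 alone lay 10.3 and 29.3 kb away.

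A small number stood alone. No other region of any kind had its midpoint within 50 kb of 67 D1-only regions (1.39%), against 2009 (0.902%) of all regions. The share was 1.70% for regions of MEF and D1 of both methods only, 2.92% for OSNK D1 only and 1.08% for OySyNyK D1 only, and 0.0823% for regions present at all 6 intermediates, so standing alone was not particular to the D1-only regions of both methods. The most isolated began at 104344066 on chromosome X, 480 bp wide, with a score of 70.2 with OSNK and 76.2 with OySyNyK and 665 kb from any peak of another library. The next began at 84136982 on chromosome 14, 433 kb from another library's peak, and the other 3, at distances of 292, 288 and 271 kb, were on chromosomes 12, 7 and 8 from 65183597, 58502059 and 61667060. All 5 had scores between 54.3 and 87.3.

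The surroundings of the D1-only regions had less 5hmC peak cover than those of regions present at all 6 intermediates. In the 100 kb around each midpoint, with the region itself left out, mean peak cover was 7.01% at OSNK D1, 7.19% at OSNK D3 and 4.95% at OSNK D5, and 5.85%, 5.31% and 3.92% at the same days of OySyNyK, with 4.72% in MEF and 2.35% in iPSC. Divided by the cover of each library over its whole span, the mean cover was 1.92 for MEF, then 1.95, 1.88 and 1.81 from D1 to D5 with OSNK or 1.95, 1.83 and 1.75 with OySyNyK, and 1.46 for iPSC. Around regions present at all 6 intermediates and absent in MEF and iPSC the ratios were 2.84 for MEF, then 2.98, 3.51 and 3.67 with OSNK or 3.23, 3.55 and 3.60 with OySyNyK, and 2.49 for iPSC. Around the 6724 regions of MEF and D1 of both methods only, they were 2.02 for MEF, then 1.88, 1.69 and 1.60 with OSNK or 1.88, 1.68 and 1.58 with OySyNyK, and 1.38 for iPSC. Relative cover around D1-only regions was highest at D1, close to the MEF value, and lower on each later day with both methods. Around the regions of MEF and D1 it was highest in MEF. Other regions of the same set that fell in a window were not left out. For D1-only regions these add cover at D1 and in no other library by the rule. Regions present at all 6 intermediates add cover in all 6 intermediate lists by their rule, and neither of these sets adds cover in MEF or iPSC. Regions of MEF and D1 of both methods only add cover in MEF and at D1. The part of same-set regions in the ratios, and in their differences between sets, was not tested. Neighbouring windows overlap and are not independent, and no test is given.

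**Figure D5:**
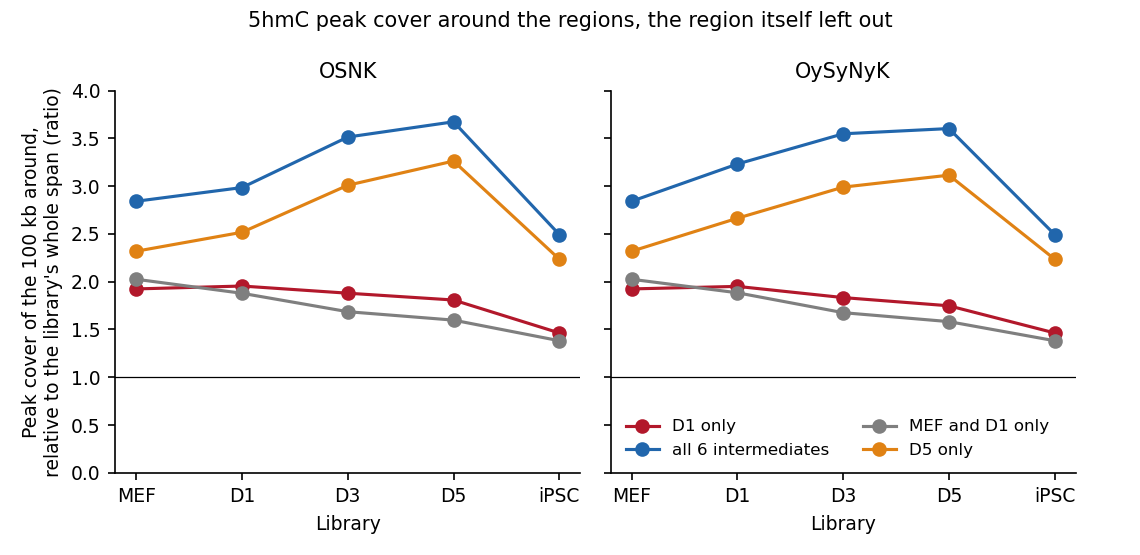
Peak cover of the 100 kb around a region, the region left out, divided by the library's cover over its whole span (vertical axis, ratio), from MEF over D1, D3 and D5 to iPSC, for OSNK (left) and OySyNyK (right), with lines joining the mean values of each set of regions and 1 library per point. D1-only regions are at 1.95 at D1 and 1.81 or 1.75 at D5, while regions present at all 6 intermediates are at 2.98 or 3.23 at D1 and 3.67 or 3.60 at D5.

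The regions were found on all 20 chromosomes, and most 100-kb windows with any of them held 1. What an even scatter would give was not computed. There were 18.8 per 10 Mb of spanned sequence, between 15.3 on chromosome 17 and 22.9 on chromosome 9 among autosomes, and 6.84 on X. Neighbours were a median of 237 kb apart (quartiles 83.0 and 575), and 258 of 4799 gaps were 10 kb or less. At least 1 region fell in 1763 of the 2582 spanned windows of 1 Mb. Of the 100-kb windows, 3390 held 1 such region, 583 held 2, 78 held 3, 6 held 4 and 1 held 5.

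The densest window was on chromosome 16 from 52300001 to 52400000. Its 10 regions included 5 D1-only ones, beginning at 52333551, 52364910, 52379939, 52383756 and 52385679, with scores of 59.3 to 132 with OSNK and 53.6 to 70.8 with OySyNyK. OSNK D1 had 10 peaks there and OySyNyK D1 had 7. No peak was listed at D3 with either method, at OySyNyK D5 or in iPSC, 1 was listed at OSNK D5 and 3 in MEF. Most of the peaks listed in this window were of D1. By the rule the 5 regions themselves hold at least 5 of the 10 with OSNK and at least 5 of the 7 with OySyNyK. The other 4 windows, with 4 such regions each, also had more peaks at D1 than on either later day with both methods, and all 4 had peaks at D3 and D5. One was on chromosome 4 from 56500001 to 56600000, with 10 peaks at OSNK D1 and 11 at OySyNyK D1 while OSNK had 3 at D3 and 4 at D5, and OySyNyK had 5 at D3 and 2 at D5. One of its 4 D1-only regions, from 56512389 to 56513372, scored 230 with OSNK and 169 with OySyNyK. The others were on chromosomes 6, 9 and 10 from 91100001, 102800001 and 110300001. From D1 over D3 to D5, OSNK had 17, 9 and 10 peaks in the first of these, 15, 8 and 9 in the next and 14, 7 and 9 in the last. OySyNyK had 21, 14 and 4 peaks in the first, 18, 8 and 10 in the next and 11, 5 and 3 in the last. These windows were named for their number of D1-only regions, which raises their D1 peak numbers. On the scale of 1 Mb, the most were 11 on chromosome 16 from 24000001, where 252 regions lay in all, then 10 on chromosome 9 from 75000001 among 142 and 10 on chromosome 13 from 24000001 among 172. In these the D1-only regions were a small part of a dense neighbourhood.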

How the data were processed

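5hmC was captured by glucosylation, biotinylation and streptavidin pull-down of sonicated DNA, per the labels' protocols, and 1 peak list per library was deposited. Reads were processed with Bowtie and MACS, per the submitters' processing notes. Read numbers, settings and whether a control library was used were not given in the sources, so depth is unknown. The score of each peak is used as deposited by the authors. The notes name hg18, a human build, but the lists hold mouse chromosomes and reach past the last GRCm38 gene on 10 of 20 chromosomes. No genome or annotation of their assembly was used here, so the planned gene annotation, gene lists and base composition were left out. Coordinates count from 1.

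Peaks were merged in Python 3.11.15 (pandas 2.3.3, numpy 2.4.6), and intervals came from scipy 1.17.1. The merge gave the same 222732 regions and 4819 members with bedtools 2.31.1 and was tested on simulated lists. A region takes its highest peak score per library. Distances run from edge to edge. Regions named in the text follow fixed rules: the 10 highest lower D1 scores, the 5 widest, the 5 farthest from and 3 closest to other lists, and the 5 windows of 100 kb and 3 of 1 Mb with the most members. The 3 with the lowest lower score, the split by score against MEF and the X comparison of shares, with its weighting by score, were added after seeing the data. The members and the comparisons were chosen with earlier results of these data known. Figures used matplotlib 3.10.9.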

Additional observations from a re-analysis of the deposited data

How the results depend on the processing

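Peak lists give no read depth, so weak or missing peaks cannot be separated from shallow libraries, and 1 library per group leaves culture variation unmeasured. No paired analysis was possible because each group had 1 library.

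Regions seen on D1 only numbered 340 with D1 scores of at least 100 and absence judged on all peaks, 1412 with equal numbers of peaks, 1699 with equal numbers of 500-bp peaks and 3157 with peaks within 1 kb merged, and were within 1.5 times of 4819 under the other 4 alternatives. Their share of regions absent in MEF and iPSC was 4.61%, 15.6%, 16.1% and 18.1% in these settings, 25.4% with a score of at least 100 in every list and 21.7% where presence needed 50% of the region. D3-only regions numbered 1301 with presence at 50%, 402 with a score of at least 100, 9 with a score of at least 100 at D3 alone, 553 with equal numbers and 560 merged. D5-only regions numbered 290 with a score of at least 100, 15 with it at D5 alone and 760 merged. D1-only regions outnumbered D3-only and D5-only ones in all 8 alternatives.

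The share with another library's peak within 1 kb was 39.1% with presence at 50%, 22.4% with a score of at least 100, 37.6% with it at D1 alone, 30.2% with equal numbers and 38.7% with 500-bp peaks. The X share was 0.643% with a score of at least 100, 1.76% with it at D1 alone, 0.779% with equal numbers, 0.706% with equal numbers of 500-bp peaks and 3.01% merged. D1-only shares on X were 41.8%, 22.2%, 28.2% and 28.6% in the first 4 of these settings, against 25.3%, 4.54%, 15.5% and 16.0% on autosomes. The difference between regions absent and present in MEF at the same score was -17.3 points with presence at 50%, -16.6 with a score of at least 100, -7.98 with it at D1 alone and -12.9 merged. This difference stayed negative in all 8 alternatives, while the counts, shares and scores could not change sign. The causes were not tested.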

Other observations

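D1-only regions of a single method differed between the methods in how near they lay to peaks of the iPSC list. The 6408 regions seen at OySyNyK D1 alone were a median of 13.5 kb from the nearest iPSC peak (quartiles 4.03 and 42.7), and the 15827 seen at OSNK D1 alone were 29.3 kb from it (quartiles 8.16 and 126). The 4819 regions of both methods lay between these values, at 17.8 kb. Distances to MEF peaks had the same order, 6.72 kb for OySyNyK alone and 10.3 kb for OSNK alone, with 7.22 kb for both. All 3 sets were measured against the same iPSC and MEF lists. The OySyNyK D1 list held fewer peaks than the OSNK D1 list, and the part of list length in the difference was not tested. Peaks of a single method had lower scores than those of both. The median score was 60.3 at OySyNyK D1 alone and 68.3 at OySyNyK D1 in regions of both methods. It was 65.6 at OSNK D1 alone and 80.8 at OSNK D1 in regions of both methods.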
